A study of Mus musculus with 6 samples.

Results

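The miR-379/410 cluster is the distal group of miRNA genes in the imprinted Dlk1-Dio3 region of mouse chromosome 12, and it was examined in retinas with and without Dicer1 in rod photoreceptors. Its members were taken by name: 38 of the 855 precursors in the values carried a name on the cluster's list, which runs from mmu-mir-379 through mmu-mir-411, mmu-mir-541 and others to mmu-mir-410 (the species prefix is left out below). The libraries came from whole retinas of mice aged 4 weeks on a mixed C57BL/6J - SJL background, collected in the morning between 8:00 and 10:00. The control group was Dicerfl/fl, iCre75-, and the conditional knockout group (cKO) was Dicerfl/fl, iCre75+, so that all animals carried the floxed Dicer1 alleles and only the cKO mice carried the rod-directed Cre transgene. Each group had 3 libraries, each made from a pool of 6 retinas, and all other retinal cells of the cKO mice kept a Dicer1 gene that the transgene was not aimed at. The labels call the libraries biological replicates but do not say which mice entered which pool, so p-values measure only the spread between these pools.

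MicroRNA genes of this cluster are transcribed from the maternally inherited chromosome as a long polycistronic RNA, which is cut to hairpins by Drosha and to mature miRNAs by Dicer. The cluster is restricted to placental mammals, arose by repeated local duplication, and is best known from neurons, where neuronal activity raises its transcription through the factor Mef2. Several members act at dendrites and synapses. A value given for a precursor here sums reads from both of its arms, so the mature products were not measured separately.

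All 38 members matched a RefSeq miRNA gene (GRCm38.p6, a later build than the mm9 named in the submitters' processing notes). Of these, 36 lay on the plus strand of chromosome 12 between mir-379 and mir-410, at chr12:109709060-109743795, a span of 34.7 kb. GENCODE M21 starts its Mirg gene, the long RNA after which the cluster is often named, at position 109729764 of that build, so that 12 of the 36 hairpins lay in Mirg and 24 lay upstream of its annotated start. Of the 12, 4 lay in introns of every annotated Mirg transcript, 4 wholly inside an exon and 4 partly inside one. Names went against membership in 1 case: mir-496b is on chromosome 19 and not in the cluster. The entry mir-299b is the minus-strand hairpin opposite mir-299a.

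Mature sequences are shown first for the 5 most abundant precursors, since these precursors held most of the cluster's summed level. For each, the sequence of a single arm is printed, and the values do not tell which arm was the more abundant. Capitals mark the seed, bases 2 to 8 from the 5′ end, and sequences are those of RefSeq.
miR-411-5p: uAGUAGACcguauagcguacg
miR-410-3p: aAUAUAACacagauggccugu
miR-541-5p: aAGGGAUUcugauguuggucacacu
miR-381-3p: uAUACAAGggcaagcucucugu
miR-300-3p: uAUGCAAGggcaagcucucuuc
The last of these pairs is close in sequence but not in seed. Counted from the 5′ end of miR-381-3p, miR-300-3p differs by A4G, G21U and U22C, and A4G falls inside the seed.

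Few members shared a seed. The 68 mature sequences of the 36 clustered hairpins held 63 distinct seeds, and sharing was confined to 5 pairs of different clustered hairpins. They are shown because members with the same seed are predicted to bind the same target sites.
miR-379-3p: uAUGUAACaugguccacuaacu
miR-411-3p: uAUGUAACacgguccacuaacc
miR-379-5p: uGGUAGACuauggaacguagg
miR-1193-5p: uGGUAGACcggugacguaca
miR-410-5p: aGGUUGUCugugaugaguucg
miR-494-5p: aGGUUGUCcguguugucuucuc
miR-758-5p: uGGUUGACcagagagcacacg
miR-1197-5p: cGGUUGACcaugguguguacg
miR-376b-5p: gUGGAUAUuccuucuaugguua
miR-376c-5p: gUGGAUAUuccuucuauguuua
A start with GGU at bases 2 to 4 recurs through these sequences. It was present in 14 of 68 mature sequences of the cluster (20.6%), all from the 5p arm, where it made up 14 of 35 (40%). Among mature sequences of all other precursors in the values it was present in 16 of 982 (1.63%), and in 7 of 366 named as 5p (1.91%). This feature was noticed after the sequences were read, and it is a description with no test. The pairs with one seed were not alike in level, as mir-411 and mir-379 show below.

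Levels are given in RPKM, reads scaled by the length of the precursor and the reads of the library. The inserts were selected at miRNA size, so the number of reads need not grow with hairpin length. Levels, ranks and shares set between precursors therefore depend on this division by length, while the fold change of a precursor between groups does not. Of the 38 members 35 had reads and 3 were listed at 0 in every library, namely mir-654, mir-299b and mir-496b. At these depths 3 reads, the limit that a count of 0 allows, would be 4.78 to 6.52 RPKM for mir-654, 8.19 to 11.2 RPKM for mir-299b and 3.55 to 4.84 RPKM for mir-496b. The 35 members with reads spanned a 1056-fold range of mean level. There were 10 members at 1000 RPKM or more, 17 from 100 to 1000 RPKM, 6 from 10 to 100 RPKM and 2 below 10 RPKM. The most abundant member, mir-411, ranked 93 among all 855 precursors.

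**Figure D1:**
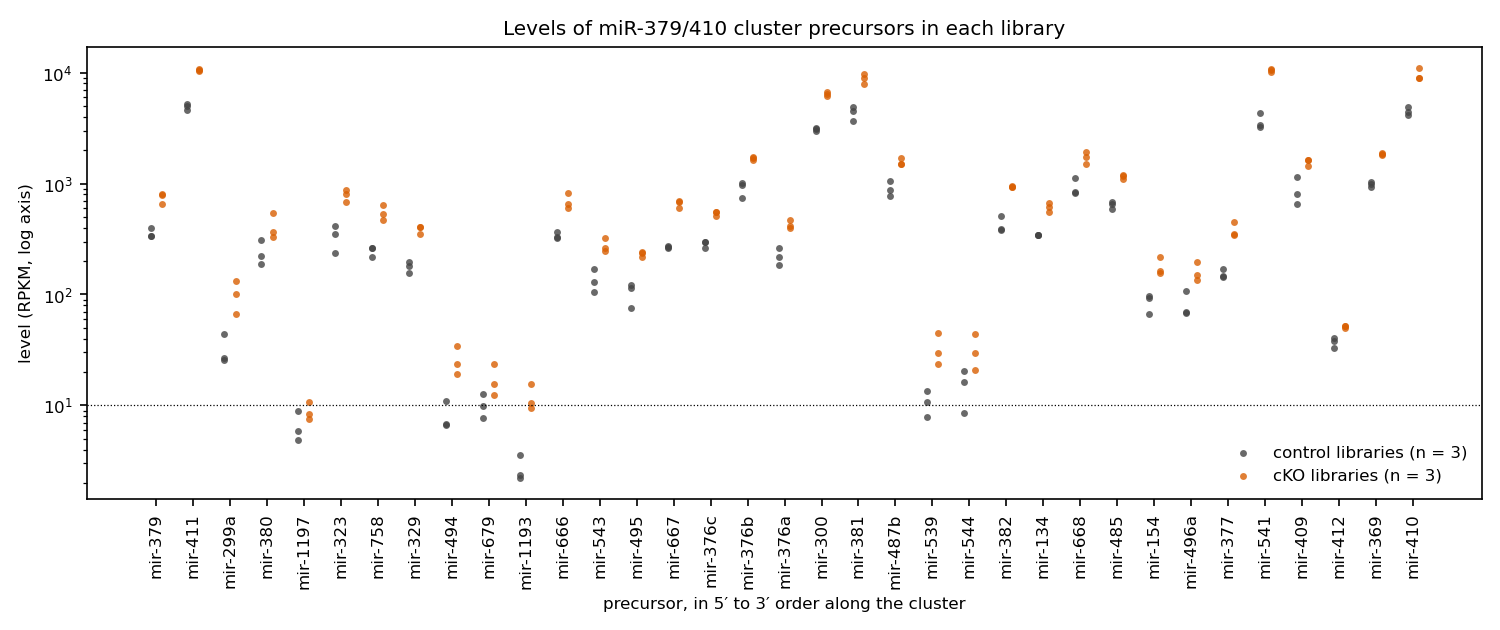
RPKM (log axis) of the 35 members with reads in each of the 6 libraries, in 5′ to 3′ order along the cluster. Points are libraries, control in grey and cKO in orange, and the dotted line is the minimum mean of 10 RPKM for the test. In all members but mir-1197 and mir-679 every cKO point lies above every control point, and abundant and scarce precursors are interspersed along the cluster.

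Members of this cluster were higher in cKO retina almost throughout, relative to the total of each library. Differences were tested on log2(RPKM + 1) with limma over the 461 precursors that had a mean of at least 10 RPKM, and adjusted p values are over all of these. Of the 33 members tested, 31 rose and none fell, where 69.4% of all tested precursors rose and 1.74% fell. The median tested member was 2.07-fold higher in cKO retina (log2 1.05), against 1.67-fold (log2 0.74) for all tested precursors. In 32 of the 33 every cKO library lay above every control library, a pattern seen in 71.6% of all tested precursors. The middle of the members lay close together, with quartiles at 1.87- and 2.22-fold. Only mir-494 reached the minimum through the cKO group alone, with a control mean of 8.17 RPKM, so its passing the filter favoured a rise. Whole retina is a mixture of cells, in which fewer cells of a type and less RNA per cell cannot be told apart.

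The precursors with the highest levels carried most of the cluster's signal: mir-411, mir-410, mir-541, mir-381 and mir-300 together held 69.1% ± 1.89 (SD, n = 3) of its summed RPKM over controls and 72.1% ± 0.702 (SD, n = 3) over cKO libraries. For mir-411 the control libraries stood at 4980.3, 4573 and 5183 RPKM and the cKO libraries at 10482, 10664 and 10351 RPKM. The groups were far apart and the cKO libraries differed little among themselves. The rise was 2.14-fold (log2 1.10, SE 0.12; limma adjusted p = 2.4e-04).

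The last gene of the cluster, mir-410, had almost the same level and change as mir-411 near its start. Control libraries held 4872, 4155 and 4448 RPKM of mir-410, and cKO libraries held 11098, 8903 and 8936 RPKM. The groups did not overlap, with cKO 1 the highest library, and the rise was again 2.14-fold (log2 1.10, SE 0.14; adjusted p = 3.2e-04). The seeds printed above for these precursors are unrelated.

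The near-identical precursors mir-381, known to promote dendrite growth in neurons, and mir-300 rose alike. Control libraries stood at 3675, 4868 and 4529.9 RPKM for mir-381, and cKO libraries at 7862, 9800.0 and 8840.3 RPKM. Replicate 1 was the lowest library of each group. For mir-300 the values were 3098, 3184 and 2976 RPKM in control and 6624, 6406 and 6106 RPKM in cKO libraries, with no overlap. Fold changes were 2.03 (log2 1.02, SE 0.15; adjusted p = 5.4e-04) and 2.07 (log2 1.05, SE 0.12; adjusted p = 2.6e-04). Their hairpins share a window of 20 bases with at most 1 mismatch, so a read could be placed at either, and their values may not be separate measurements.

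The largest rise among abundant members was that of mir-541, which has been tied to neurite growth. It stood at 3374, 3227 and 4338 RPKM in control and at 10467, 10659 and 10211 RPKM in cKO libraries. Control 3 was the highest control, still far below any cKO library. The rise was 2.89-fold (log2 1.53, SE 0.15; adjusted p = 1.7e-04). Its share of the cluster's summed RPKM went from 12.3% in control to 16.4% in cKO retina, while mir-411 held 16.6% and 16.5%.

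The level of mir-134, which limits dendritic spine size through Limk1, was nearly constant over controls at 343, 345 and 343 RPKM, and stood at 620.3, 668 and 549.9 RPKM in cKO libraries. The groups were well apart, a 1.77-fold rise (log2 0.83, SE 0.14; adjusted p = 0.0010). For mir-485, which targets the synaptic vesicle protein SV2A, control libraries held 685, 590.1 and 648 RPKM and cKO libraries 1193, 1177 and 1107 RPKM. This was a 1.81-fold rise (log2 0.86, SE 0.14; adjusted p = 8.2e-04) without overlap.

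The precursors mir-369, mir-496a and mir-543 are known to act together on N-cadherin in neurogenesis and neuronal migration. The most abundant of them, mir-369, stood at 989, 925 and 1031 RPKM in control and 1815, 1866 and 1838 RPKM in cKO libraries. Neither group had an outlying library, and the rise was 1.88-fold (log2 0.91, SE 0.13; adjusted p = 5.0e-04). The less abundant mir-496a and mir-543 rose 1.97-fold (adjusted p = 0.0041) and 2.08-fold (adjusted p = 0.0016). In the same range lay mir-329, an activity-regulated partner of mir-134 in dendrites, at 2.19-fold (adjusted p = 4.6e-04).

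The mir-376 genes are known for A-to-I editing of their precursors by ADAR enzymes, and mir-376b is also known as a regulator of autophagy genes. For mir-376b control libraries held 742, 1005 and 964 RPKM and cKO libraries 1627, 1684 and 1729 RPKM, a 1.87-fold rise (log2 0.91, SE 0.15; adjusted p = 9.9e-04). Control 1 was the lowest and no libraries overlapped. The copies mir-376c and mir-376a rose 1.88-fold (adjusted p = 6.8e-04) and 1.92-fold (adjusted p = 0.0012), so that the 3 genes kept their order of level. Counted from the 5′ end of miR-376b-3p, miR-376a-3p differs by A4G, C13A and U20G.

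The remaining members of about 1000 RPKM were mir-668, mir-487b and mir-409, which rose 1.85-, 1.74- and 1.84-fold (adjusted p = 0.0015, 0.0017 and 0.0035). For mir-409 control libraries stood at 1151, 648 and 810.3 RPKM and cKO libraries at 1628, 1617 and 1439 RPKM. For mir-487b they stood at 1063, 773 and 869 RPKM against 1497, 1697 and 1489 RPKM, and for mir-668 at 1122, 846 and 818 RPKM against 1927, 1720.2 and 1490.0 RPKM. Control 1 was the highest control in all 3, and in each the lowest cKO library was above it by a smaller factor than for the 5 most abundant members.

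The smallest fold change of a tested member was that of mir-412. Its control libraries held 38.4, 32.6 and 40.7 RPKM and cKO libraries 52.3, 52.4 and 50.2 RPKM. Although these groups did not overlap, the 1.38-fold difference did not pass (log2 0.47, SE 0.22; adjusted p = 0.083), at 18 to 29 reads per library. Its mean of 44.5 RPKM stood between neighbours of far higher level, mir-409 on one side and mir-369 on the other, with means of 1216 and 1411 RPKM.

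The other tested member that did not pass was mir-679, at 12.6, 9.80 and 7.65 RPKM in control and 23.4, 15.6 and 12.3 RPKM in cKO libraries. Here cKO 3 lay within the control range, with 4 to 12 reads per library (log2 0.70, SE 0.41; adjusted p = 0.15). For mir-380 control libraries stood at 311, 188 and 221 RPKM and cKO libraries at 542, 367 and 329 RPKM. Replicate 1 was far above the rest of each group, and the 1.72-fold rise (log2 0.78, SE 0.24; adjusted p = 0.015) lost its call without control 2 (adjusted p = 0.060) and without cKO 1 (adjusted p = 0.051).

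Rises near 3-fold were measured for the scarce members mir-299a, mir-494 and mir-539. For mir-299a the values were 25.5, 43.7 and 27.0 RPKM in control and 133, 66.6 and 101 RPKM in cKO libraries (12 to 58 reads). Both groups were spread widely without overlapping, and the rise was 3.04-fold (log2 1.60, SE 0.31; adjusted p = 0.0015). For mir-494 control libraries held 11.0, 6.83 and 6.66 RPKM and cKO libraries 34.0, 23.8 and 19.3 RPKM, at 4 to 20 reads (2.90-fold; log2 1.54, SE 0.40; adjusted p = 0.0065). For mir-539 the values were 10.8, 7.84 and 13.4 RPKM against 44.9, 23.5 and 29.6 RPKM, at 4 to 23 reads (2.83-fold; log2 1.50, SE 0.37; adjusted p = 0.0054). In each of these 3 the cKO 1 library was the highest.

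Of the precursors between 100 and 1000 RPKM, mir-377, mir-667 and mir-323 had the highest fold changes, 2.45, 2.43 and 2.41. For mir-377 control libraries held 169, 145 and 148 RPKM and cKO libraries 446, 351 and 346 RPKM (log2 1.29, SE 0.17; adjusted p = 3.2e-04). For mir-667 they held 269, 274 and 265 RPKM against 683, 693 and 599 RPKM (log2 1.28, SE 0.14; adjusted p = 2.4e-04). These groups were well separated. Also in this range mir-382, mir-666, mir-495 and mir-154 rose 2.22-, 2.03-, 2.27- and 2.08-fold without overlap between groups. All 27 members with a mean of at least 100 RPKM rose, by 1.72- to 2.89-fold, where 77.1% of all tested precursors of that level rose.

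Low-level members were less stable. The call of mir-544, at 5 to 24 reads, was made at adjusted p = 0.044 and did not hold in 4 of the fits that leave out a library: control 1 (adjusted p = 0.14), control 3 (0.058), cKO 1 (0.14) and cKO 2 (0.083). The 2 members below the filter were mir-1193 and mir-1197. The first stood at 2.21, 3.60 and 2.34 RPKM in control and 9.55, 15.5 and 10.6 RPKM in cKO libraries, that is 2 to 3 reads against 7 to 13. Without a filter on low values mir-1193 rose (log2 1.79; adjusted p = 0.0047). The second, mir-1197, overlapped between groups at 4 to 9 reads per library.

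Levels within a group varied by gene. Among members of at least 100 RPKM the coefficient of variation over the 3 controls ran from 0.395% for mir-134 to 29.5% for mir-409, with a median of 14.1%, and over the cKO libraries from 1.29% for mir-382 to 27.5% for mir-380, with a median of 8.91%. The library cKO 3 was the lowest of its group in 23 of the 33 tested members, and cKO 1 was the highest in 19. The fewest reads were those of cKO 3, at 5480940, against 6894116 to 7478237 in the other libraries.

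By position, the 21 tested members upstream of the annotated Mirg gene had a median log2 fold change of 1.05 (range 0.70 to 1.60) and the 12 inside it had a median of 0.94 (range 0.47 to 1.53), and the difference was not tested. In the plot of fold changes along the cluster the lowest value, that of mir-412, and the rise of mir-541 both lie near its 3′ end.

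**Figure D2:**
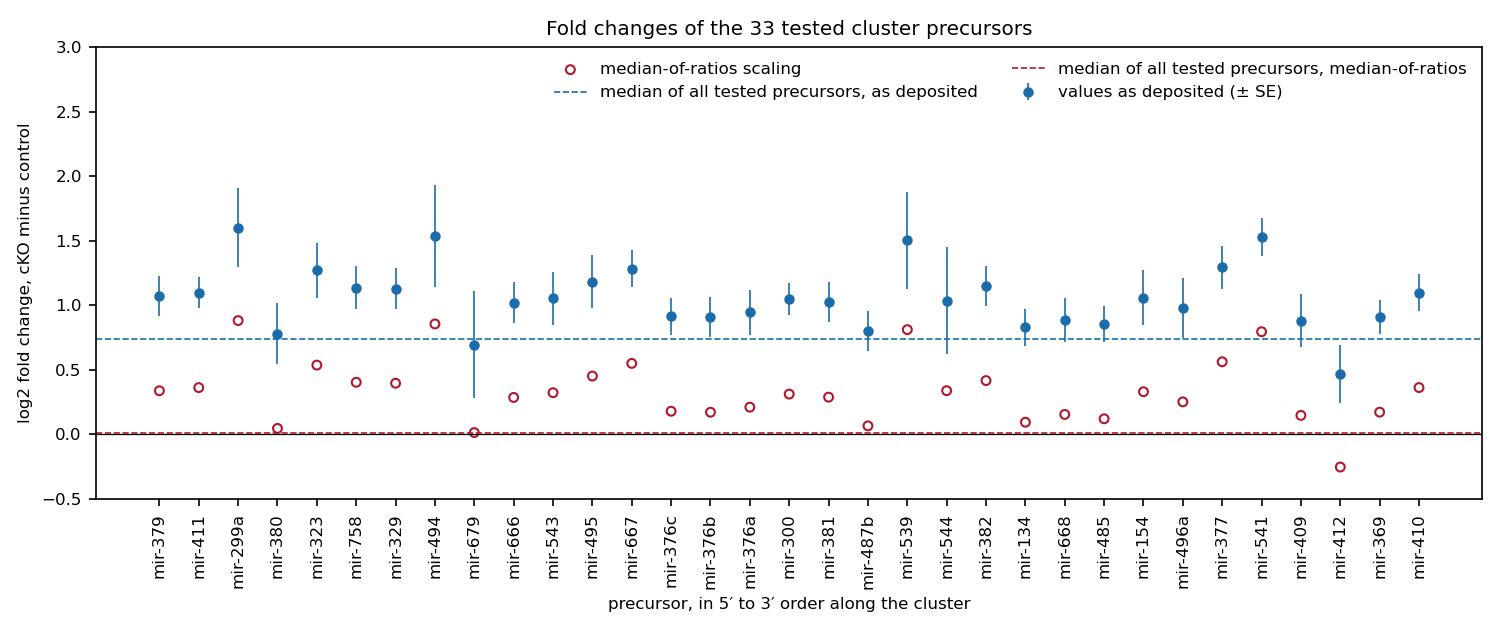
Log2 fold change, cKO minus control, of the 33 tested members in 5′ to 3′ order. Filled points with SE are values as deposited, open circles are values after median-of-ratios scaling, and dashed lines are the medians of all 461 tested precursors, at 0.74 and 0.014. Most filled points lie between 0.8 and 1.3, and the open circles lie lower by a near-constant step.

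The size of these rises depends on the reference. RPKM is relative to each library's reads, and mir-182, a photoreceptor miRNA, took 54.7% ± 2.34 (SD, n = 3) of control library reads and 30.2% ± 3.22 (SD, n = 3) of cKO library reads. Dividing each library by its median ratio to the average library (median-of-ratios scaling) lowered the median log2 fold change of all tested precursors by 0.73. With it 32 of 33 members were still higher in cKO retina, at a median of 0.32, against a median of 0.014 for all tested precursors. However, only mir-541 (log2 0.79; adjusted p = 0.0028) and mir-667 (log2 0.55; adjusted p = 0.028) rose and none fell, where 2.17% of all tested precursors rose and 9.98% fell. At an unadjusted p below 0.05, 13 members were higher and none lower, against 9.11% and 16.5% of all tested precursors. The exception in sign was mir-412, at -0.25 (adjusted p = 0.48). Totals without the reads at mir-182 left 5 members that rose, mir-541, mir-667, mir-377, mir-382 and mir-411, and none that fell, where 4.34% of all tested precursors rose and 7.81% fell. Amounts per retina were not measured.

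Summed over all members, the cluster's level was 29866, 28427 and 30637 RPKM in control libraries and 65153, 64557 and 61043 RPKM in cKO libraries. The groups were far apart, with a ratio of means of 2.14. As a share of all summed RPKM the cluster held 0.152% ± 0.00593 (SD, n = 3) over controls and 0.283% ± 0.0156 (SD, n = 3) over cKO libraries. That difference had p = 0.1 in an exact permutation test (two-sided), the minimum for 3 libraries against 3. Once mir-182 was left out of the denominator the shares were 0.244% ± 0.0128 and 0.345% ± 0.029 (SD, n = 3 for both), a ratio of 1.42. Of library reads the cluster held from 0.227% (Wilson 95% interval 0.224% to 0.231%) in control 2 to 0.526% (0.520% to 0.531%) in cKO 1. These intervals cover counting error only, since reads after PCR without molecular identifiers are not independent molecules.

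Other miRNAs moved in these libraries as well. On values as deposited 69.4% of all tested precursors rose, and the median log2 fold change was 0.74. The marker precursors that rose stood at 0.71 (mir-181a-1 and mir-181a-2), 0.96 (mir-204 and mir-211), 1.37 (mir-126), 1.1 (mir-451a) and 0.65 (mir-133a-1 and mir-133a-2). Of the marker lists, both precursors of inner retinal mir-181a rose, with sums of 4919232 to 5321549 RPKM in control and 8053701 to 8723185 RPKM in cKO libraries. Both of the pigment epithelium pair, mir-204 and mir-211, rose (sums of 655315 to 758334 against 1197357 to 1475670 RPKM). Endothelial mir-126 rose from 5495 to 8953 RPKM over controls to 17256 to 18854 RPKM over cKO libraries, and 1 of 2 red cell precursors rose, their sum going from 165 to 240 RPKM to 362 to 538 RPKM. The 3 copies of neuronal mir-124 did not pass, with sums of 203586 to 291230 RPKM in control and 222199 to 265609 RPKM in cKO libraries, and 2 of 3 photoreceptor precursors fell, the 3 summing to 7568213 to 7894241 RPKM in control and 4037712 to 4911543 RPKM in cKO libraries. Of 4 tested muscle precursors 2 rose (sums of 930 to 1622 against 1566 to 2451 RPKM), and neither lens and cornea precursor passed (2287 to 52094 against 23970 to 60291 RPKM). No marker was at 0 in every library. The part of other cell types in the rise of the cluster was not tested.

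**Figure D3:**
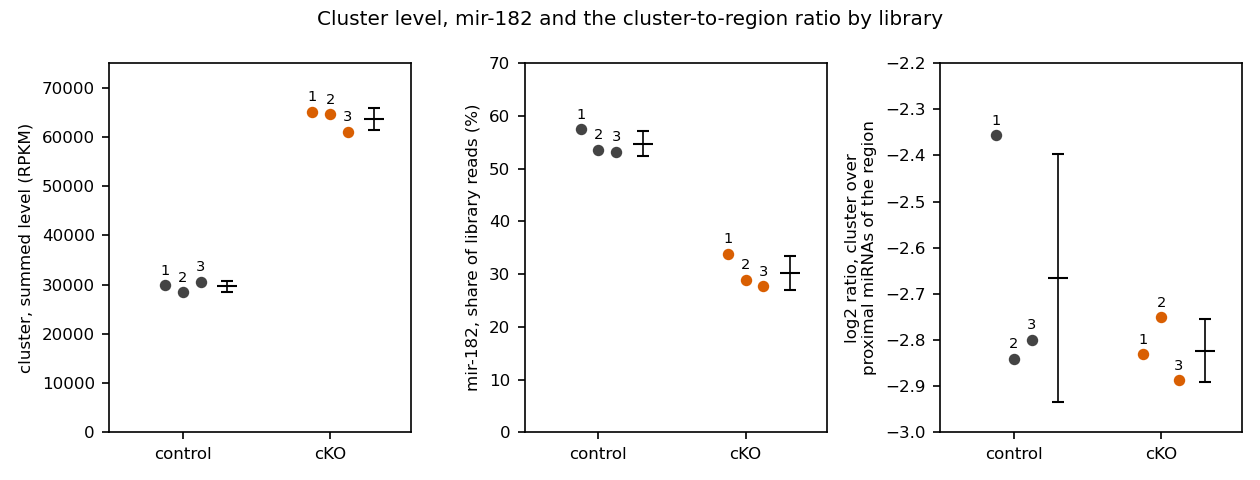
Values in each library, numbered by replicate, with the group mean and SD (n = 3) as bars. From left to right: summed RPKM of the cluster, mir-182 as a percent of library reads, and the log2 ratio of the summed cluster to the proximal miRNAs of the same imprinted region. Cluster sums separate the groups upward and mir-182 downward, while in the third panel control 1 stands above the other 5 libraries.

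A ratio taken inside a library does not depend on its total, so the cluster was set against the proximal miRNAs of the same maternal transcript, those in Meg3, antisense to Rtl1 and between them. Of that list 18 precursors were in the values and 14 were tested. All 14 rose, by 0.76 to 1.32 on the log2 scale and 1.13 at the median, where 69.4% of all tested precursors rose, and with median-of-ratios scaling only mir-127 rose. Among them mir-3071 and mir-136 overlap on opposite strands and hold the same reads, so they are 1 measurement.

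The most abundant proximal miRNA was mir-127, which lies antisense to Rtl1. It stood at 122502, 172679 and 182585 RPKM in control and 407071, 371834 and 393525 RPKM in cKO libraries, a 2.49-fold rise without overlap (log2 1.32, SE 0.15; adjusted p = 2.4e-04). Control 1 was low for mir-127 and not for the cluster. The log2 ratio of the summed cluster to the summed proximal miRNAs was -2.36, -2.84 and -2.80 in control and -2.83, -2.75 and -2.89 in cKO libraries. The groups overlapped, and the difference of -0.16 was not larger than the spread (exact two-sided permutation p = 0.6). Without control 1 it was -0.0029 (exact two-sided permutation p = 1). With the most abundant member of each side left out, mir-411 and mir-127, its sign turned to 0.16, and every cKO library then lay above every control (exact permutation test, two-sided, p = 0.1). With mir-127 alone left out the difference was also 0.16 without overlap (exact two-sided permutation p = 0.1). Against mir-127 alone it was -0.21 (exact two-sided permutation p = 0.4), so the ratio rests largely on this 1 miRNA.

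The members were also tested against each other, by subtracting each library's mean log2 level of the 33 tested members before the fit. This asks which members changed by more or less than their cluster. None passed after adjustment (limma), with 2 members at an unadjusted p below 0.05 (29.3% of all tested precursors), while of all 461 tested precursors 0% were higher and 20.4% were lower relative to the cluster. Subtracting their own mean centres the members on 0, while the median of all tested precursors was -0.32. The shares over all precursors are therefore not a like comparison, and they do not tell whether the members moved together. Differences from the cluster mean lay within 0.25 on the log2 scale in 25 of 33 members, and ran from -0.59 for mir-412 to 0.54 for mir-299a.

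**Figure D4:**
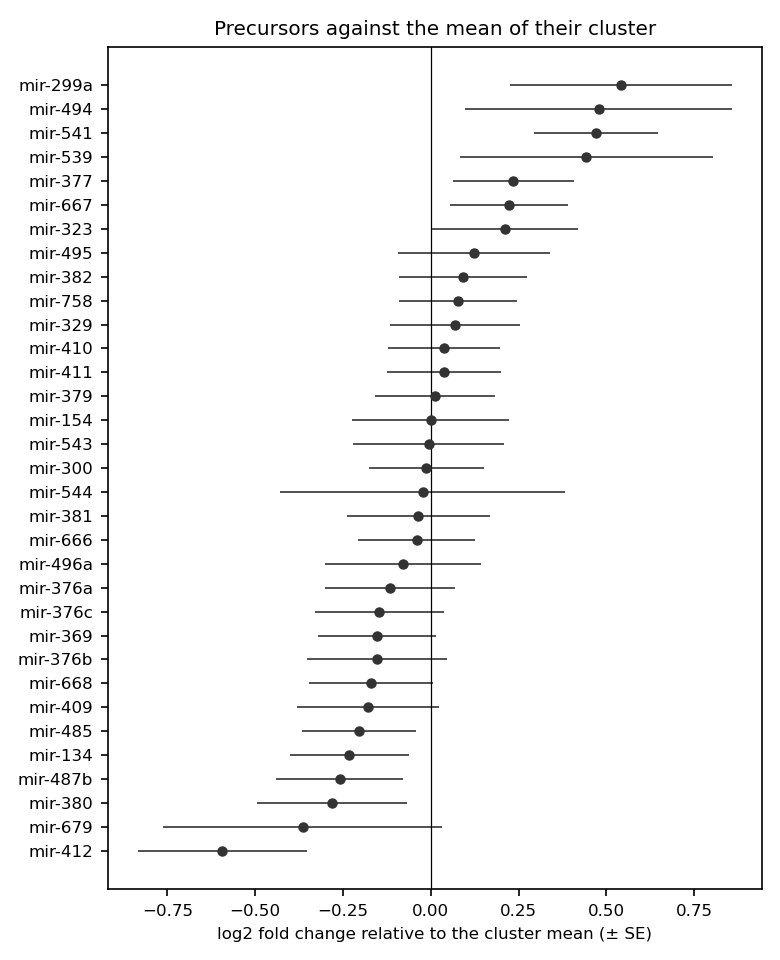
Log2 fold change of each tested member relative to the mean of the 33 tested members (point) with its SE (bar), ordered by value. Most bars reach or cross 0, mir-541 stands out on the right among abundant members, and mir-412 is lowest.

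Relative to the cluster mean mir-541 was higher in cKO retina by 0.47 (SE 0.18; adjusted p = 0.094) and mir-412 lower by 0.59 (-0.59, SE 0.24; adjusted p = 0.12), and these were the 2 with an unadjusted p below 0.05. With a pseudocount of 10 RPKM mir-541 passed (0.55; adjusted p = 0.048). As shares of the cluster's summed RPKM, mir-541 took 11.3%, 11.4% and 14.2% in control and 16.1%, 16.5% and 16.7% in cKO libraries. The shares of mir-412 were 0.129%, 0.115% and 0.133% in control and 0.0803%, 0.0812% and 0.0822% in cKO libraries. In both the groups were apart.

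Shares of 9 of the 35 members with reads did not overlap between groups. Lack of overlap has a two-sided exact permutation p of 0.1 for a single member, the smallest this design allows. Libraries without any group difference would thus separate in either direction at a rate of 0.1 per member. Some of the 9 may have arisen in that way, and their number was not tested against this rate. The 9 shares were higher in cKO retina for mir-541, mir-667 and mir-1193, and lower for mir-134, mir-369, mir-412, mir-485, mir-487b and mir-1197. Of these, mir-1193 and mir-1197 had 2 to 13 reads per library. For mir-485 the shares were 2.29%, 2.08% and 2.11% in control and 1.83%, 1.82% and 1.81% in cKO libraries. For mir-134 they were 1.15%, 1.21% and 1.12% against 0.952%, 1.04% and 0.901%. Shares of a fixed sum depend on each other, so a larger share of mir-541 lowers those of the rest.

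Of the 5 pairs with a shared seed, 3 had both precursors tested. With the seed of its 3p arm in common, mir-379, the first gene of the cluster, rose 2.10-fold (adjusted p = 5.0e-04) from 338, 336 and 397 RPKM in control to 812, 795 and 652 RPKM in cKO libraries, at a level far below that of mir-411. The pair mir-410 and mir-494 both rose, although the filter favoured a rise of mir-494. So did mir-376b and mir-376c, whose 5p mature sequences differ at 1 base. In the pair mir-758 and mir-1197 the calls differed. Control libraries held 262, 218 and 264 RPKM of mir-758 and cKO libraries 642, 534 and 473 RPKM, a 2.20-fold rise (adjusted p = 5.2e-04) without overlap. For mir-1197 the values were 8.91, 4.84 and 5.90 RPKM against 10.8, 8.44 and 7.60 RPKM, and the groups overlapped. It was below the filter, and in the fit without one it did not pass (log2 0.42; adjusted p = 0.415). Some hairpins of the 33 tested members share a window of 20 bases with at most 1 mismatch, which is only part of a hairpin. Joined by such windows, 8 members fell into 3 sets: mir-300 with mir-381, mir-376b with mir-376c and mir-487b, and mir-379 with mir-411 and mir-758. Of these, mir-376c and mir-487b were joined only through mir-376b, and mir-379 and mir-758 only through mir-411. This leaves 28 sets that could be counted separately. By the same measure no precursor outside the list shared such a window with a member.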

How the data were processed

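Small RNA was sequenced from 6 retinal libraries (3 control, 3 cKO), prepared per the labels' protocols from total RNA with 11 PCR rounds and a gel selection for miRNA-sized inserts, and run together. The authors deposited RPKM values per precursor. Bowtie and mm9 are named in the submitters' processing notes. The sources used here do not give versions, annotation, strand or the treatment of reads with several matches.

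RPKM times RefSeq precursor length gave whole reads in 99.3% of 3792 values (tolerance 0.01 reads) and in all values of the members, from which library totals of 5480940 to 7478237 reads followed. At 75 bases 1 read is 1.78 to 2.43 RPKM. Reads summed over precursors reached 1.55 to 1.86 times these totals, so some reads count at several precursors.

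Differences (cKO minus control) were fitted with limma 3.58.1 (R 4.3.3; lmFit, eBayes with trend; two-sided; Benjamini-Hochberg over 461 precursors; threshold 0.05) on log2(RPKM + 1), a scale that understates changes of low precursors. The fit was tested on simulated data. Single values per library were tested by exact permutation. Members are those listed by name; library values are given for the 10 most abundant, the 5 highest and 5 lowest fold changes and further members chosen after their values were seen, among them mir-134, mir-485 and mir-667. Members, lists and alternatives were chosen with earlier results of these data known. Replicate numbers are not stated to pair the libraries, so a replicate block was fitted only as an alternative. Figures used matplotlib 3.10.9.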

Additional observations from a re-analysis of the deposited data

How the results depend on the processing

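The number of members that rose was 31 of 33 and went to 2 with median-of-ratios scaling, 2 with quantile normalization (mir-541 and mir-300) and 5 with totals without the reads at mir-182 (of all tested precursors 2.17%, 2.6% and 4.34% rose and 46, 29 and 36 fell), and the median log2 fold change from 1.05 to 0.32, 0.27 and 0.43. The sign turned for mir-412 in these 3 scalings (-0.25, -0.29 and -0.15) and, with quantile normalization, for mir-487b (-0.011), mir-679 (-0.12) and mir-134 (-0.036). Leaving out a library gave 29 to 31 rises, with 54.7% to 69.8% of all tested precursors rising, and medians of 0.99 to 1.12. Of 229 values of 18 members under the other settings, 226 kept direction and call. The exceptions were mir-412, which passed without a variance trend, and mir-380. These 18 do not include mir-544, which lost its call in the fits named above and also without a filter on low values (limma adjusted p = 0.051). The log2 ratio of the cluster to the proximal miRNAs turned from -0.16 to 0.16 without the most abundant member of each, and ran from -0.24 to -0.0029 without single libraries. With mir-127 alone left out it was 0.16 too. Relative to the cluster mean 1 member passed with a pseudocount of 10 RPKM and 1 with a replicate block, mir-541 in both; over all settings its adjusted p ran from 0.012 to 0.28. Why results moved between settings was not tested.

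Replicate numbers were shared between groups, and the labels do not say whether they pair the libraries. Deviations of same-numbered libraries correlated at 0.19, 0.26 and 0.0093, which does not settle it. With the replicate block 31 members rose (73.3% of all tested precursors) and the median was 1.05. The share difference was 0.130 percentage points (exact permutation p = 0.25, the minimum within these blocks) and the log2 ratio -0.16 (exact permutation p = 0.75). Depth limits the scarce members, since mir-299a, mir-412, mir-494, mir-539, mir-544, mir-679, mir-1193 and mir-1197 had 58 reads or fewer in any library.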

Other observations

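By RefSeq position, 4 further precursors of the values lie in the same imprinted region and belong to neither list. They were chosen by that position, with their values known. Downstream of mir-410, mir-3072 stood at 9.67, 6.99 and 6.82 RPKM in control and 22.6, 27.9 and 21.98 RPKM in cKO libraries. On the minus strand, mir-3544 stood at 513, 454 and 536 RPKM in control and 1101, 1079 and 1101 RPKM in cKO libraries. Within the cluster mir-453, and upstream of it mir-882, were listed at 0 in every library.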
